A study of Homo sapiens with 16 samples.

Results

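The genes described here were the MYC, MAX and MXD network: the oncogenic transcription factor MYC, its partner MAX, the repressors MXD1, MXD3, MXD4, MXI1, MNT and MGA, and the related factor MLX. They were taken from the deposited count table by symbol, without regard to their values, and make up 9 of its 26229 listed genes. All 9 exceeded a mean of 10 counts per library and were among the 14673 genes tested. Messenger RNA was sequenced in 16 libraries of 2 human cell lines, A431, which derives from an epidermoid carcinoma, and HaCaT, an immortalised keratinocyte line. In the siRNA arm each line received either a control siRNA (siCTRL, 1 library) or an siRNA against YAP1 (siYAP, 3 libraries), given 2 times with 24 h in between and followed by RNA collection 48 h after the last dose. In the vector arm each line received an empty vector (1 library) or a plasmid for YAP5SA, a constitutively active mutant of YAP1 (3 libraries). All cultures were kept in DMEM with foetal calf serum and carried no other stated alteration. The comparisons ask how the network was expressed after loss and after gain of YAP1 activity in each line. No control was replicated, so the spread behind every test came from the 4 treated triplicates, and p-values measured the spread between these samples only.

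MYC is a basic helix-loop-helix leucine zipper protein that binds DNA as a heterodimer with MAX, at the E-box CACGTG, and recruits histone acetyltransferases and elongation factors to raise transcription of genes for growth, ribosome production and nucleotide synthesis. The MXD proteins (MXI1 is also called MXD2) and MNT compete for MAX and bring the SIN3 and histone deacetylase corepressors to the same sites, while MGA pairs with MAX within a polycomb complex. MLX stands beside MAX as the partner of MondoA and ChREBP, the glucose sensors, and can also pair with MXD1, MXD4 and MNT. In epidermis MYC is linked to basal cell growth and MXD1 to differentiating layers.

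The start regions of the members were searched for the E-box CACGTG, which reads the same on either strand, and for GGAATG on either strand, the core of the element bound by TEAD factors, the DNA-binding partners of YAP. RefSeq windows of 300 bases around annotated start sites (GRCh38.p14) were at hand for 8 of the 9 genes. CACGTG was present in a window of MXD4, MNT and MLX, against 7.26% of all 35116 windows, and GGAATG in a window of MLX, in 1 of 3 windows of MXI1 and in 1 of 3 windows of MGA, against 14% of all windows. MAX, MXD1 and MXD3 held neither. The sequences below are shown because MXD4, MNT and MLX are the members that share an E-box and because MXI1 moved most closely with MXD4 across the libraries. Each is written 5′ to 3′ on the strand of the gene, with the motif in capitals (CATTCC being GGAATG on the opposite strand).
MXD4, chr4:2262315-2262359 (-), motif 238 bases before the start site: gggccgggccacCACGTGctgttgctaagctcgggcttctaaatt
MNT, chr17:2401221-2401280 (-), motif 193 bases before the start site: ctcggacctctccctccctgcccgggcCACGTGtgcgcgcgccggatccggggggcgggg
MLX, chr17:42567023-42567082 (+), motif 50 bases before the start site: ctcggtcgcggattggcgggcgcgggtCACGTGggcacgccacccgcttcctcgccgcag
MXI1, chr10:110207377-110207436 (+), motif 201 bases before the start site: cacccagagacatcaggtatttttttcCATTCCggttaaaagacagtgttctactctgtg
MXD4 and MNT, which share the E-box, were both lower in the vector arm of HaCaT, whereas MLX, which also has it, was higher there. A match describes the letters and is not a binding site.

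The libraries held 18115624 to 46791673 assigned read pairs (median 26622174), and levels are given as CPM, counts scaled to a common library total, after TMM scaling. YAP1, the targeted gene, stood at 94.3 CPM with siCTRL and 5.04 to 7.0 CPM with siYAP in A431 and at 254 and 21.6 to 23.2 CPM in HaCaT, so it was lower in every siYAP library. With empty vector it was at 124 CPM in A431 and 423 CPM in HaCaT, and with YAP5SA at 1495 to 3245 CPM and 7549 to 22255 CPM. The first A431 YAP5SA library stood apart from its replicates (chi-square per degree of freedom 75.4 and 70.7, against 6.65 between the other pair). The HaCaT YAP5SA libraries also differed from each other (70.8 to 144). Member calls that changed when 1 of these libraries was left out are therefore given. EGFR, which is amplified in A431, was 750 to 1358 CPM in A431 and 298 to 557 CPM in HaCaT. The summed level of 10 keratinocyte markers was 3355 to 5968 CPM in A431 and 2739 to 9023 CPM in HaCaT, lower in every library of the siRNA arm than of the vector arm within each line. HaCaT siRNA libraries also had 21.5 to 27.9 CPM of 6 summed fibroblast markers, led by DCN, against 0.66 to 1.79 CPM in HaCaT vector libraries, and 16 to 59.2 against 1.18 to 2.46 CPM of 4 endothelial markers, led by CDH5 in the siRNA arm. In A431 the fibroblast sum was 10.2 to 14.8 CPM in siRNA and 2.45 to 5.46 CPM in vector libraries, and the endothelial sum 18.3 to 33.8 and 3.88 to 5.92 CPM, so both sums separated the arms in both lines; the part of these differences in the results below was not tested. Summed leukocyte and melanocyte markers stayed at or below 3.79 CPM, with CD3E, TYR, DCT and the fibroblast gene COL1A2 at no more than 3 counts in any library. In bulk RNA, fewer cells that express a gene and less of its RNA per cell cannot be told apart.

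Against the control of its own arm, no member of the network passed the test (FDR below 0.05 and mean log2 CPM above 1, edgeR quasi-likelihood test) in either line or over both lines. A value over both lines is the mean of the log2 fold changes of the 2 lines, so a call there can rest mainly on 1 line. With siYAP in A431, 5.60% of all tested genes were called (1.81% higher and 3.78% lower) and 0 of 9 members, none of them at an unadjusted p below 0.05. With siYAP in HaCaT, 5.67% were called (2.37% higher and 3.30% lower), with MYC and MLX the 2 members at an unadjusted p below 0.05. Over both lines siYAP gave 13.0% (5.30% higher and 7.68% lower), with 0 members at that unadjusted p. YAP5SA in A431 gave 0.00% in either direction, YAP1 itself included (log2 fold change 4.36, FDR = 0.197 by edgeR), and 1 member, MYC, at an unadjusted p below 0.05. In HaCaT, YAP5SA gave 13.6% (6.99% higher and 6.64% lower) and 3 members at that unadjusted p (MLX, MXD3 and MYC). Over both lines it gave 2.04% (1.38% higher and 0.661% lower) and 3 members (MAX, MXD3 and MYC). Of all tested genes, 22.2%, 20.4% and 28.5% had an unadjusted p below 0.05 with siYAP in A431, in HaCaT and over both lines. With YAP5SA these shares were 5.64%, 31.8% and 21.4%. Nothing particular to the members is read from the counts at that p. DESeq2 called MYC alone after siYAP in HaCaT and after YAP5SA over both lines, and 0 members in the other 4 comparisons. The median log2 fold change of the members lay between -0.17 and 0.24 in the 6 comparisons, beside 0.01 to 0.04 for all tested genes.

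**Figure D1:**
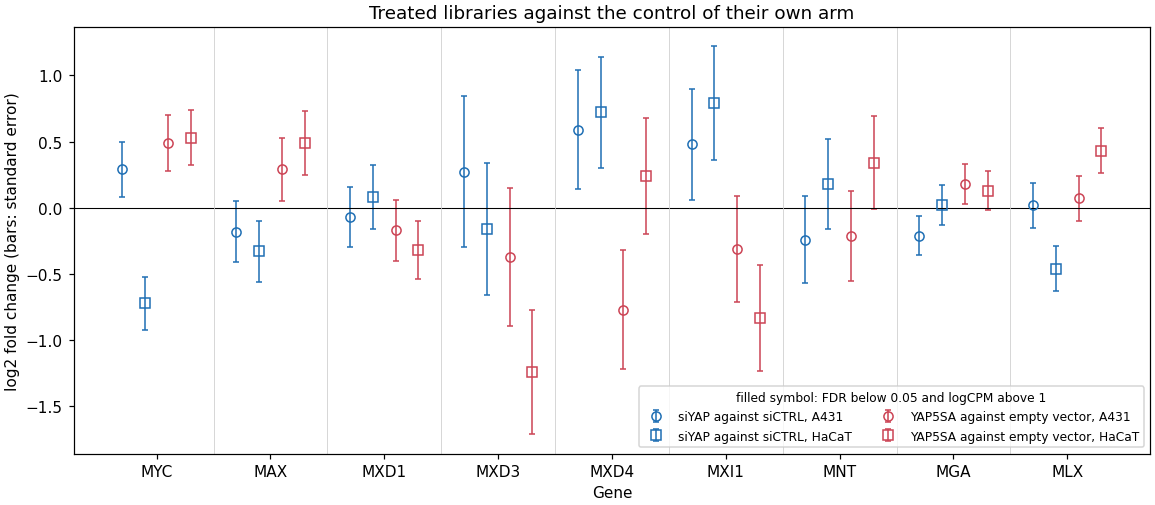
Log2 fold change (vertical axis, bars are standard errors) of each member (horizontal axis) in treated libraries against the single control of the same arm, for siYAP (blue) and YAP5SA (red) in A431 (circles) and HaCaT (squares). All symbols are open because no member was called; MYC lay at -0.72 after siYAP in HaCaT and at 0.49 and 0.53 after YAP5SA in A431 and HaCaT.

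MYC, the activator of the network, was at 176 CPM in the A431 siCTRL library and at 190, 224 and 231 CPM in the siYAP libraries. In HaCaT the siCTRL library had 108 CPM and the siYAP libraries 53.8, 81.9 and 61.2 CPM. All 3 siYAP libraries thus lay above the control in A431 and below it in HaCaT. The log2 fold change was 0.29 (SE 0.21, FDR = 0.463) in A431 and -0.72 (SE 0.20, FDR = 0.0548) in HaCaT, the latter with FDR = 0.0119 when the second HaCaT siYAP library was left out. The difference between the lines was -1.0 (SE 0.29, FDR = 0.199) and was not called, as for the other 8 members, against 0.170% of all genes. At an unadjusted p below 0.05 there was 1 member, MYC, beside 11.5% of all genes. DESeq2 called MYC (FDR = 0.0494).

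In the vector arm MYC was at 77.7 CPM with empty vector and 95.9, 122 and 110 CPM with YAP5SA in A431, and at 117 CPM with empty vector and 168, 157 and 181 CPM with YAP5SA in HaCaT. Every YAP5SA library lay above the control of its line, by 1.41-fold in A431 and 1.45-fold in HaCaT. Over both lines the log2 fold change was 0.51 (SE 0.15, FDR = 0.0864). Without the first A431 YAP5SA library it was 0.56 with FDR = 0.0389, and MXI1 was called as well (-0.79, FDR = 0.0454). Without the first HaCaT YAP5SA library MAX was called (0.48, FDR = 0.034). The share of all genes called was 8.41% and 9.34% without these libraries, against 2.04% with all. The YAP5SA effect on MYC differed between the lines by 0.04 (SE 0.29). No member was called in that comparison by edgeR or DESeq2, with 0.0886% of all genes called by edgeR. At an unadjusted p below 0.05 there were 0 members, beside 22.4% of all genes.

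MAX, a partner shared by MYC and the MXD proteins, was at 34.5 CPM in A431 siCTRL and 28.7, 31.7 and 31.3 CPM in A431 siYAP. In the vector arm of A431 it was at 33.2 CPM in empty vector and 32.9, 45.3 and 43.7 CPM in YAP5SA. HaCaT had 81.6 CPM in siCTRL, 65.6, 61.3 and 67.7 CPM in siYAP, 46.9 CPM in empty vector and 48.2, 79.0 and 70.8 CPM in YAP5SA. MAX was therefore lower than the control in all 6 siYAP libraries and above it in 5 of 6 YAP5SA libraries. Over both lines the log2 fold change was -0.25 (SE 0.16, FDR = 0.34) with siYAP and 0.39 (SE 0.17, FDR = 0.205) with YAP5SA. In HaCaT, YAP5SA gave 0.49 (SE 0.24, FDR = 0.177), and 0.67 (FDR = 0.021) without the first HaCaT YAP5SA library.

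MXI1, an MXD repressor, was at 130 CPM in A431 siCTRL and 193, 175 and 179 CPM in siYAP, and at 78.8 CPM in HaCaT siCTRL and 126, 152 and 130 CPM in siYAP. It was above the control in every siYAP library, with a log2 fold change of 0.64 over both lines (SE 0.30, FDR = 0.183). In the vector arm it was at 96.1 CPM with empty vector and 118, 50.9 and 63.7 CPM with YAP5SA in A431, and at 38.7 CPM with empty vector and 32.0, 14.5 and 18.7 CPM with YAP5SA in HaCaT. YAP5SA libraries overlapped the control in A431 and lay below it in HaCaT (-0.83, SE 0.40, FDR = 0.172). That HaCaT value was -1.22 (FDR = 0.0282) without the first HaCaT YAP5SA library.

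MXD4 had a low level in most libraries. It was at 4.80 CPM in A431 siCTRL, 5.91, 8.48 and 7.39 CPM in siYAP, 3.72 CPM in empty vector and 3.44, 1.31 and 1.86 CPM in YAP5SA. In HaCaT it was at 22.6 CPM in siCTRL and 35.1, 41.0 and 35.7 CPM in siYAP, but at 3.92 CPM in empty vector and 6.05, 2.93 and 4.90 CPM in YAP5SA. The HaCaT siRNA libraries thus stood above all other libraries, the HaCaT siCTRL library included. Against its own control MXD4 was higher in all 6 siYAP libraries (0.66 over both lines, SE 0.31, FDR = 0.179), whereas YAP5SA gave -0.77 in A431 (SE 0.45, FDR = 0.808) and 0.24 in HaCaT (SE 0.44, FDR = 0.737).

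MXD1, the MXD protein associated with differentiation, was nearly level in A431, at 160 CPM in siCTRL, 174, 141 and 143 CPM in siYAP, 151 CPM in empty vector and 149, 124 and 132 CPM in YAP5SA. HaCaT had 42.6 CPM in siCTRL and 43.2, 42.2 and 49.5 CPM in siYAP, but 149 CPM in empty vector and 152, 89.4 and 115 CPM in YAP5SA. The 4 HaCaT siRNA libraries lay below the 4 HaCaT vector libraries without overlap. Over both lines the log2 fold change was 0.0069 with siYAP (SE 0.16) and -0.24 with YAP5SA (SE 0.16, FDR = 0.391). MXD3 was near the limit of detection, at 0.724 to 1.27 CPM in A431 and 0.603 to 2.45 CPM in HaCaT (15.1 to 77.0 estimated counts per library), below the expression limit for a call. Its largest own-control value was -1.24 with YAP5SA in HaCaT (SE 0.47, FDR = 0.09); 40.4% of its exon bases overlap RAB24 or PRELID1, so some of its counts may belong to those genes.

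MNT, a widely expressed antagonist of MYC, was low. It was at 9.01 CPM in A431 siCTRL, 8.09, 6.1 and 8.79 CPM in siYAP, 5.56 CPM in empty vector and 5.25, 4.90 and 4.31 CPM in YAP5SA. HaCaT had 8.25 CPM in siCTRL, 9.45, 7.63 and 10.9 CPM in siYAP, 3.53 CPM in empty vector and 5.94, 3.22 and 4.28 CPM in YAP5SA. In both lines the 4 siRNA libraries lay above the 4 vector libraries, while the own-control values were between -0.24 and 0.34. MGA was at 105 to 137 CPM in A431 and 167 to 211 CPM in HaCaT, with own-control values between -0.21 and 0.18, and HaCaT exceeded A431 in every library.

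MLX was at 52.7 CPM in A431 siCTRL, 56.6, 52.9 and 50.5 CPM in siYAP, 48.0 CPM in empty vector and 52.3, 52.4 and 46.9 CPM in YAP5SA. HaCaT had 42.3 CPM in siCTRL and 31.0, 34.8 and 26.7 CPM in siYAP, and 50.3 CPM in empty vector and 60.9, 77.5 and 65.2 CPM in YAP5SA. It was therefore below its control in all 3 HaCaT siYAP libraries and above it in all 3 HaCaT YAP5SA libraries, with values of -0.46 (SE 0.17, FDR = 0.14) and 0.43 (SE 0.17, FDR = 0.106). In A431 the values were 0.02 (SE 0.17) and 0.07 (SE 0.17). Of the MLX exon bases, 18.1% overlap other genes, PSMC3IP on the opposite strand, and strand use in the counting was not given.

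**Figure D2:**
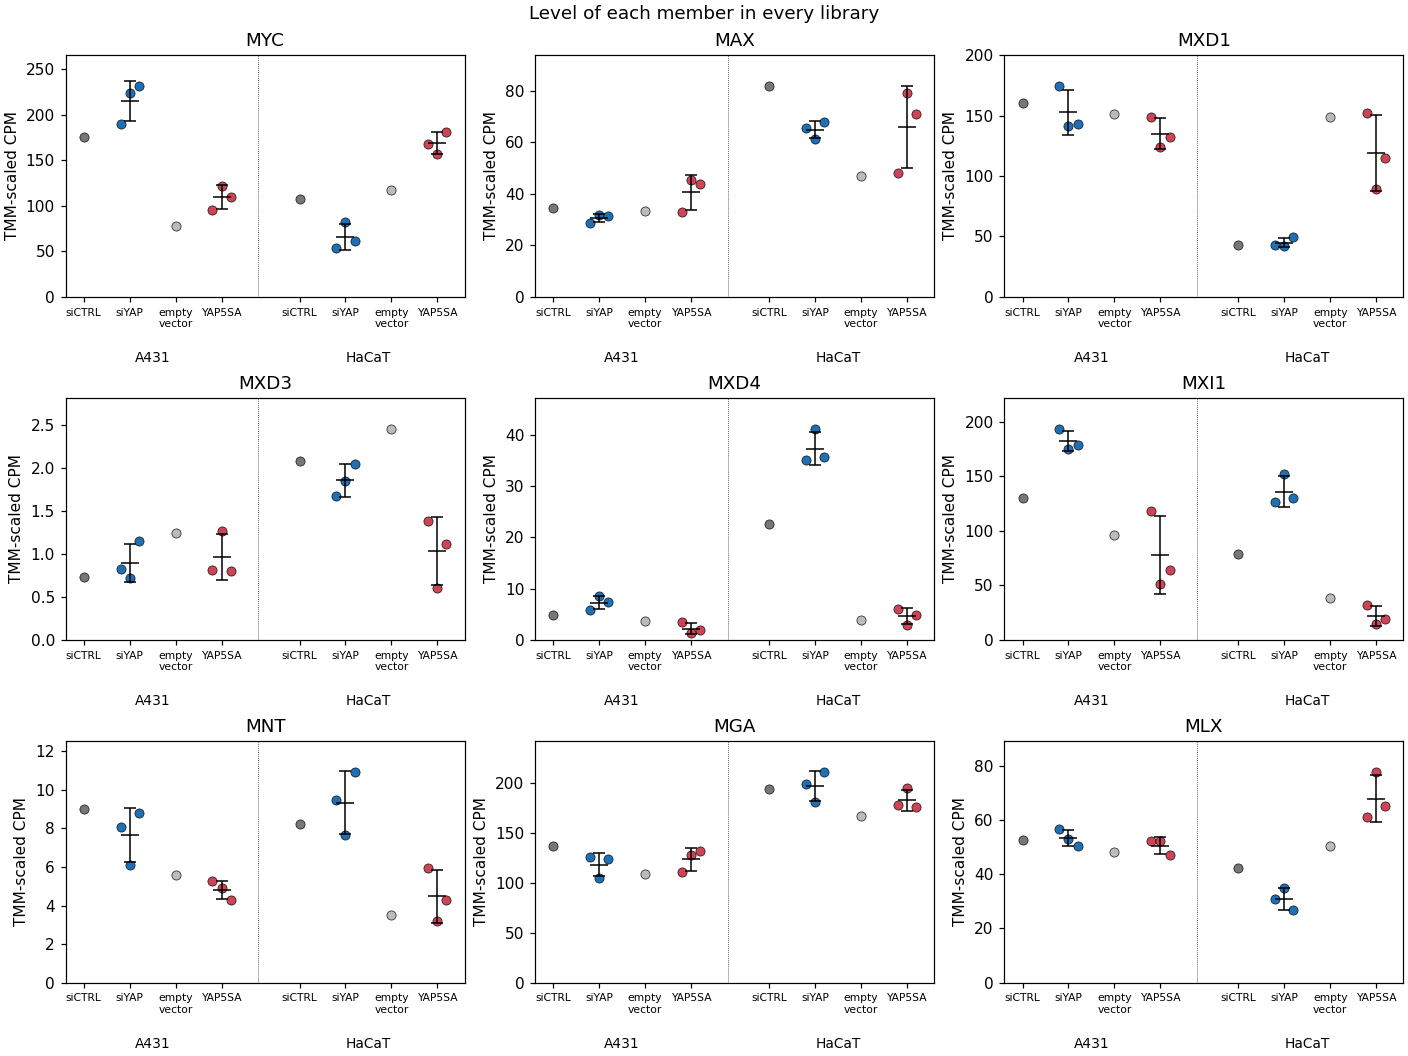
TMM-scaled CPM (vertical axes, from 0) of each member in every library of A431 and HaCaT by treatment; points are libraries, and the bars of the triplicates show mean and SD. MYC is at 108 CPM in siCTRL and 53.8 to 81.9 CPM in siYAP in HaCaT, and MXD4 and MXD1 separate the HaCaT siRNA libraries from the HaCaT vector libraries.

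The arms were then compared with each other. YAP5SA libraries of A431 had less MYC, MXI1, MXD4 and MNT than siYAP libraries, and those of HaCaT had more MYC, MXD1 and MLX and less MXI1, MXD4 and MNT. These libraries also differed in the way they were transfected, so YAP activity and arm cannot be told apart, and the control libraries differed as well. In A431, 4 of 9 members were called against 34.6% of all genes. MYC was lower by 1.96-fold (-0.97, SE 0.15, FDR = 2.82e-04), MXD4 by 3.31-fold (-1.73, SE 0.32, FDR = 0.0012) and MXI1 by 2.35-fold (-1.23, SE 0.29, FDR = 0.00532). MNT was lower by 1.59-fold (-0.67, SE 0.24, FDR = 0.0436), a call that was lost without siYAP library 1 or 3 or any of the 3 YAP5SA libraries of A431 (FDR = 0.0507 to 0.144). MAX was not called (0.41, FDR = 0.0671), though it was without the first A431 YAP5SA library (0.54, FDR = 0.02).

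In HaCaT, 6 of 9 members were called in the same comparison, against 60.0% of all genes. MYC was 2.57-fold higher (1.36, SE 0.15, FDR = 3.32e-06), MXD1 2.64-fold higher (1.40, SE 0.17, FDR = 7.07e-06) and MLX 2.20-fold higher (1.14, SE 0.12, FDR = 2.75e-06). MXD4 was 8.03-fold lower (-3.01, SE 0.31, FDR = 1.93e-06), MXI1 6.25-fold lower (-2.64, SE 0.31, FDR = 5.91e-06) and MNT 2.08-fold lower (-1.06, SE 0.24, FDR = 0.00149). These 6 genes were picked by their calls. Their groups did not overlap, but how often that held among all genes was not counted, and nothing particular to the members is read from it. The 10 proliferation markers moved with the arm as well: all 10 were called higher with YAP5SA than with siYAP in A431 (median 1.29) and in HaCaT (median 3.22). Between empty vector and siCTRL they had a median of 0.73 with 0 of 10 called in A431 and of 3.06 with 10 of 10 called higher in HaCaT. Their part in the differences of the members was not tested.

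The control libraries, which differ in arm but not in an intended change of YAP1, were compared in the same fit. Over both lines, 4 of 9 members were called between empty vector and siCTRL, against 29.0% of all genes: MYC (-0.53, SE 0.18, FDR = 0.0386), MXD4 (-1.45, SE 0.38, FDR = 0.0122) and MNT (-0.96, SE 0.30, FDR = 0.027) were lower and MXD1 (0.86, SE 0.20, FDR = 0.00609) was higher with empty vector. In A431 alone the call was limited to MYC (-1.18, SE 0.26, FDR = 0.0461), against 1.17% of all genes. In HaCaT alone 4 members were called, against 39.5% of all genes: MXD1 was higher (1.81, SE 0.29, FDR = 4.03e-04) and MXD4 (-2.52, SE 0.54, FDR = 0.00238), MNT (-1.22, SE 0.42, FDR = 0.0333) and MAX (-0.80, SE 0.29, FDR = 0.0383) were lower. These comparisons set 1 library against 1 in each line, with the spread taken from the treated libraries.

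The arms were compared again with the control of each arm subtracted first. The difference between YAP5SA and siYAP was then called for 0 of 9 members in A431, against 1.53% of all genes. At an unadjusted p below 0.05 there were 0 members, beside 20.6% of all genes. In HaCaT the difference was called for 2 of 9, against 9.0% of all genes. MYC was 2.38-fold higher (1.25, SE 0.29, FDR = 0.0214) and MLX 1.85-fold higher (0.89, SE 0.24, FDR = 0.0373). MXI1 stood at -1.62 (SE 0.59, FDR = 0.0999), and MXD4 at -0.48 (SE 0.59) and MXD1 at -0.40 (SE 0.33), both far from their values without the controls. The HaCaT value of MXD1 thus changed sign once the controls were used, as did that of MYC in A431 (0.21, SE 0.29, FDR = 0.73).

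**Figure D3:**
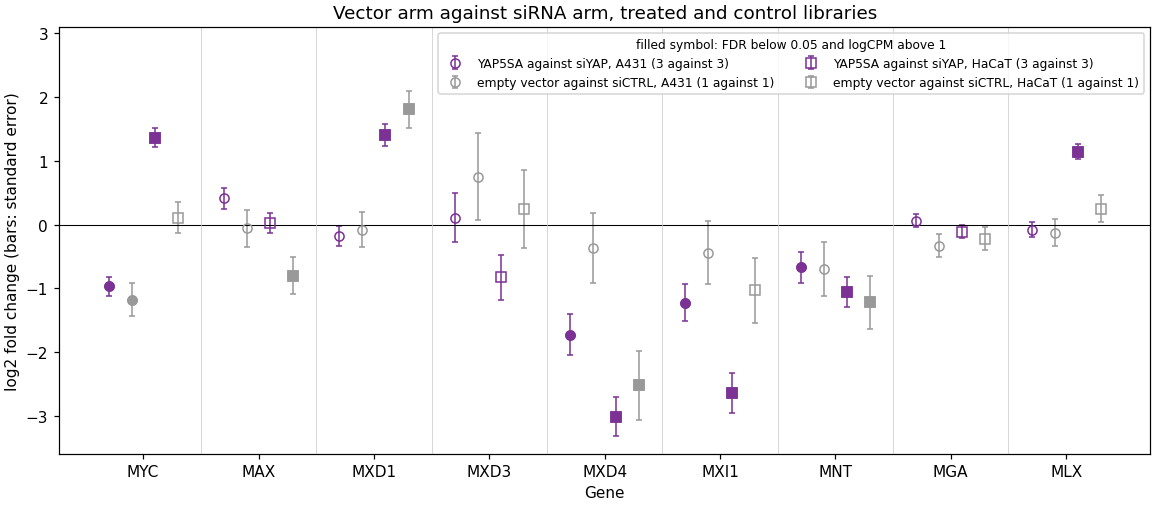
Log2 fold change (vertical axis, bars are standard errors) of each member between the vector arm and the siRNA arm, for treated libraries (purple, 3 against 3) and control libraries (grey, 1 against 1) of A431 (circles) and HaCaT (squares); filled symbols were called. MXD1 in HaCaT lies at 1.40 in treated and 1.81 in control libraries, whereas MYC in HaCaT lies at 1.36 and 0.11.

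The lines were compared within the treated groups. A431 siYAP libraries had more MYC, MXD1 and MLX and less MAX, MGA and MXD4 than HaCaT siYAP libraries, 6 of 9 members called against 58.6% of all genes. MYC was 3.27-fold higher in A431 (1.71, SE 0.15, FDR = 3.91e-07) and MXD1 3.39-fold higher (1.76, SE 0.17, FDR = 8.24e-07), while MXD4 was 5.15-fold lower (-2.36, SE 0.30, FDR = 1.25e-05) and MAX 2.12-fold lower (-1.09, SE 0.17, FDR = 6.70e-05). Among YAP5SA libraries 6 of 9 members were called too, against 50.2% of all genes. MXI1 was 3.55-fold higher in A431 (1.83, SE 0.30, FDR = 1.74e-04), and MYC (-0.63, SE 0.15, FDR = 0.0025), MAX (-0.70, SE 0.17, FDR = 0.00274), MXD4 (-1.08, SE 0.32, FDR = 0.0109, with overlapping libraries), MGA (-0.57, SE 0.10, FDR = 4.28e-04) and MLX (-0.42, SE 0.12, FDR = 0.0082) were lower. MAX, MGA and MXD4 were thus lower in A431 in both treated groups, whereas MYC and MLX were higher in A431 with siYAP and lower with YAP5SA. MXD1 was not called among YAP5SA libraries (0.18, FDR = 0.358), except without the first HaCaT YAP5SA library (0.40, FDR = 0.0273).

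The difference of these differences, the YAP5SA against siYAP value in HaCaT minus that in A431, was called for 5 of 9 members, against 40.2% of all genes. It was 2.34 for MYC (SE 0.21, FDR = 3.67e-06), 1.58 for MXD1, 1.22 for MLX, -1.41 for MXI1 and -1.28 for MXD4. MYC was lower with YAP5SA than with siYAP in A431 and higher in HaCaT, while MXI1 and MXD4 were lower in both lines. With the control of each arm used, MYC stood at 0.21 (SE 0.29) in A431 and 1.25 (SE 0.29) in HaCaT, so it was no longer lower in A431. MXD1 stood at -0.10 (SE 0.32) and -0.40 (SE 0.33), which turned the order of the lines. MLX (0.06 and 0.89) and MXI1 (-0.79 and -1.62) kept that order. The line differences of these values were not tested. For MXD4 the order of the lines turned when the control of each arm was used, at -1.36 in A431 (SE 0.64, FDR = 0.251) and -0.48 in HaCaT (SE 0.59, FDR = 0.646). The MXD4 call (FDR = 0.0295) was lost without siYAP library 1 or 3 or YAP5SA library 1 of A431, or siYAP library 2 or 3 of HaCaT (FDR = 0.0502 to 0.0947), and with a replicate block (FDR = 0.0645).

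To set the members side by side, CPM was divided by exon length (union of GENCODE v29 exons). MYC had the highest mean level per kb in A431 (51.1 CPM per kb, 25.9 to 77.0 over 8 libraries), followed by MXI1 (27.3, 11.1 to 41.8), MXD1 (23.1, 19.5 to 27.4), MLX (12.1, 11 to 13.3), MAX (7.94, 6.48 to 10.2), MGA (6.89, 5.97 to 7.77), MNT (0.745, 0.494 to 1.03), MXD4 (0.654, 0.185 to 1.2) and MXD3 (0.183, 0.14 to 0.246). In HaCaT the order was MYC (38.6, 17.9 to 60.3), MXI1 (16, 3.15 to 33.0), MAX (14.7, 10.6 to 18.4), MXD1 (13.4, 6.65 to 23.9), MLX (11.4, 6.28 to 18.2), MGA (10.6, 9.47 to 11.9), MXD4 (2.69, 0.415 to 5.80), MNT (0.763, 0.368 to 1.25) and MXD3 (0.32, 0.117 to 0.476). In A431, the ranges of MLX and MAX did not overlap, nor did those of MXD1 and MLX or of MGA and MNT, while the other neighbours in that order overlapped. In HaCaT, neighbouring ranges overlapped except between MGA and MXD4. With the longest transcript as the length, MLX and MXD1 changed places in HaCaT and the order was otherwise the same.

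The level of MYC relative to the summed MXD1, MXD3, MXD4 and MXI1 (ratio of CPM per kb, chosen after the levels were seen and given without a test) was 1.31 in HaCaT siCTRL, 0.453, 0.596 and 0.491 in HaCaT siYAP, 1.18 in HaCaT empty vector and 1.76, 2.95 and 2.60 in HaCaT YAP5SA. In A431 it was 1.08 in siCTRL, 0.90, 1.21 and 1.23 in siYAP, 0.569 in empty vector and 0.644, 1.31 and 1.05 in YAP5SA. In HaCaT the siYAP libraries lay below both controls and the YAP5SA libraries above both. In A431 the YAP5SA libraries also lay above their empty vector, while the siYAP libraries lay on either side of siCTRL. The siYAP and YAP5SA libraries of A431 overlapped. The ratio of MXI1 to MXD1 was 2.55 in HaCaT siCTRL, 4.03, 4.96 and 3.63 in siYAP, 0.359 in empty vector and 0.291, 0.224 and 0.224 in YAP5SA, so that MXI1 exceeded MXD1 in all HaCaT siRNA libraries and in none of the HaCaT vector libraries. In A431 it was 1.12 in siCTRL, 1.53, 1.71 and 1.72 in siYAP, 0.875 in empty vector and 1.09, 0.566 and 0.667 in YAP5SA.

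**Figure D4:**
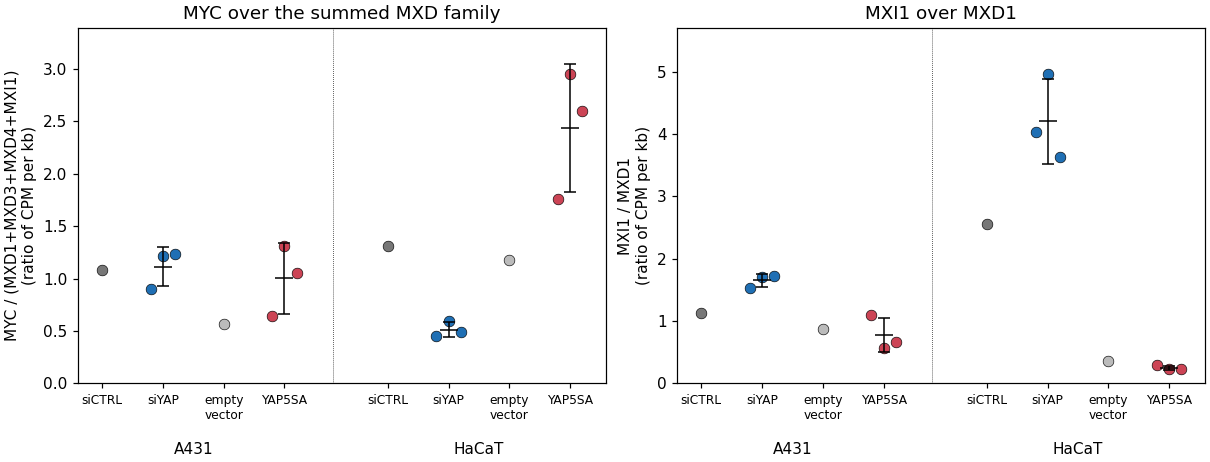
Ratio of MYC to the summed MXD family (left) and of MXI1 to MXD1 (right), each from CPM per kb, in every library; points are libraries and the bars of the triplicates show mean and SD. In HaCaT the MYC ratio is 0.453 to 0.596 with siYAP and 1.76 to 2.95 with YAP5SA.

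Across the 16 libraries, with the mean of each line taken off, MXI1 and MXD4 had the closest log2 levels of any pair of members (Pearson r = 0.96), followed by MXD4 and MNT (r = 0.89) and MXI1 and MNT (r = 0.86). MYC and MLX had r = 0.76, and MLX ran against MXI1 (r = -0.80) and MXD4 (r = -0.76). Among all other genes, the 5 most like MYC were SERPINH1, a collagen chaperone (r = 0.97), the peptidase NLN (0.94), the N-terminal acetyltransferase subunit NAA25 (0.932), TCF20 (0.929) and the nuclear exporter of microRNA precursors XPO5 (0.926). The nearest genes were SH3YL1 (0.993) and PAN3 (0.986) for MXI1, TRAPPC6A (0.988) and TBC1D8 (0.986) for MXD4, and C16orf87 (0.976) and CDH8 (0.961) for MXD1. They were IGF1R (0.962) and FYCO1 (0.957) for MNT, DUXAP8 (0.979) and NUDCD1 (0.973) for MLX, GNL3L (0.894) and ZDHHC5 (0.858) for MAX, RUNX1 (0.821) and APBB2 (0.816) for MGA, and SMDT1 (0.879) and HNRNPUL2 (0.873) for MXD3. These libraries share lines, arms and replicates, so the values describe likeness over 8 groups and are given without a test.

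Of the relatives of the network, MYCN had 0 counts in every library, which allows up to 0.063 to 0.164 CPM depending on the library (3 counts; counting error only). MYCL was at 5.19 to 11.8 CPM in A431, 16.8 to 38.5 CPM in HaCaT siRNA libraries and 6.37 to 8.50 CPM in HaCaT vector libraries. MLXIP, which encodes MondoA, was at 27.6 to 41.1 CPM in A431, but at 93.2 to 162 CPM in HaCaT siRNA and 13.7 to 22.7 CPM in HaCaT vector libraries. In HaCaT, MLXIP was lower with YAP5SA than with siYAP (-2.78, SE 0.20, FDR = 9.06e-08) and lower with empty vector than with siCTRL (-2.60, SE 0.35, FDR = 1.18e-04), the opposite direction to MLX. MLXIPL did not exceed 2.25 CPM. None of the 3 tested relatives was called against its own control in either line.

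Genes known to be induced by MYC, 32 in all, were mostly lower after siYAP. Over both lines 29 of 32 lay below 0, with a median of -0.40 against 0.04 for all genes, and 11 were called lower and 0 higher, against 7.68% and 5.30% of all genes. Among them were POLR1B, a subunit of RNA polymerase I (-0.51, SE 0.10, FDR = 0.00457), and DKC1, the pseudouridine synthase dyskerin (-0.62, SE 0.12, FDR = 0.00622). In HaCaT 5 were called lower (GNL3, PPAT, RRS1, DKC1 and POLR1B, named here after their values were seen), against 3.30% of all genes, with a median of -0.56. In A431 LDHA alone was called lower, against 3.78% of all genes, with a median of -0.11. The count of 11 was 7 without siYAP library 3 of A431, or without siYAP library 1 or 3 of HaCaT (8.87% to 9.59% of all genes called in either direction, against 13.0%), 13 with DESeq2 (16.9%) and 18 with siCTRL and empty vector pooled as 2 controls (20.0%). YAP5SA over both lines gave 29 of 32 above 0, a median of 0.24 against 0.03, and 1 called higher, the spermidine synthase SRM (1.07, SE 0.25, FDR = 0.0497), a count that was 7 without the first A431 and 5 without the first HaCaT YAP5SA library and 0 without YAP5SA library 2 or 3 of A431 or 3 of HaCaT. The share of all genes called moved likewise, from 2.04% to 8.41% and 9.34% without those first libraries and to 0.429%, 0.341% and 0.947% without the others. By line, YAP5SA gave 31 of 32 above 0 in A431 (median 0.34, 0 called, against 0.00% of all genes) and 22 of 32 in HaCaT (median 0.10). In HaCaT 3 were called higher (CAD, CCND2 and SRM, named after their values were seen), against 6.99% of all genes. The lists were chosen with earlier results of these samples known, so they are no independent evidence of a direction. Of 12 tested genes known to be repressed by MYC, siYAP gave 0 higher and 1 lower, NDRG1 (-0.60, SE 0.11, FDR = 0.00456), and YAP5SA gave THBS1 higher (1.44, SE 0.22, FDR = 0.00826) and the cyclin-dependent kinase inhibitor CDKN1B lower (-0.44, SE 0.09, FDR = 0.0366). The count of repressed genes lower with YAP5SA was 5 without the first A431 library, 2 without the first HaCaT library and 0 without YAP5SA library 2 or 3 of A431 or 3 of HaCaT. In HaCaT alone YAP5SA gave 1 repressed gene higher and 4 lower, against 6.99% and 6.64% of all genes.

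The proteins that work with the network were given by their transcripts, and each count in this and the next group of lists stands beside 5.30% of all genes called higher and 7.68% lower with siYAP, and 1.38% higher and 0.661% lower with YAP5SA, over both lines. The changes of these counts on leaving out a library accompany changes of the share over all genes, which was 8.87% to 11% with siYAP and 0.341% to 9.34% with YAP5SA. Nothing particular to a list is read from these counts. Of 14 MYC cofactors, siYAP over both lines lowered 2, SKP2, a ubiquitin ligase subunit that acts on MYC (-1.41, SE 0.13, FDR = 2.70e-05), and CCNT1, the cyclin of the elongation factor P-TEFb (-0.76, SE 0.08, FDR = 1.14e-04), and YAP5SA changed 0 at FDR below 0.05 in edgeR (4 higher by DESeq2, 4 without the first A431 and 2 without the first HaCaT YAP5SA library). Of 14 corepressor genes of MXD and MNT, siYAP raised ING1 (0.52, SE 0.11, FDR = 0.01) and lowered RBBP4 (-0.60, SE 0.09, FDR = 8.47e-04), and YAP5SA lowered ARID4A (-0.59, SE 0.12, FDR = 0.0373). In the polycomb complex of MGA 3 of 9 genes were lower with siYAP, YAF2 (-0.57, SE 0.14, FDR = 0.0188), PCGF6 (-0.45, SE 0.12, FDR = 0.0329) and L3MBTL2 (-0.69), and the count was 1 without siYAP library 1 or 3 of A431 or of HaCaT. Of 15 genes for MYC protein turnover, siYAP raised the phosphatase subunit PPP2R5A (0.51, SE 0.11, FDR = 0.0104) and the ubiquitin ligase subunit FBXO32 (0.67, SE 0.18, FDR = 0.0273), and YAP5SA raised the deubiquitinase USP36 (0.84, SE 0.16, FDR = 0.0255). The turnover count with siYAP was 1 without siYAP library 1 or 3 of A431 or library 3 of HaCaT, and that with YAP5SA was 0 without YAP5SA library 2 or 3 of A431, 2 without the first A431 and 3 without the first HaCaT library. The ARID4A call was lost without YAP5SA library 2 or 3 of A431 or 3 of HaCaT. With siYAP, edgeR called 0 of 5 MIZ1 partners and 0 of 4 tested MondoA and MLX targets. With YAP5SA it called 0 of these and 0 genes of the MGA complex, but 1 gene of each of the 3 lists without the first A431 YAP5SA library. Among the MIZ1 partners, 1 was also called lower with RLE factors, with DESeq2 and without the second HaCaT YAP5SA library, and 2 without the first.

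The classes of gene with which MYC and MXD1 are usually grouped were read the same way. Of 14 immediate early genes, siYAP over both lines raised IER3 (0.64, SE 0.17, FDR = 0.0275) and DUSP1 (1.01, SE 0.27, FDR = 0.03), and YAP5SA raised FOSL1 (1.82, SE 0.27, FDR = 0.00826). By line, siYAP in A431 gave DUSP1 (1.90) and ZFP36 (1.13) higher and EGR1 lower (-1.45), against 1.81% and 3.78% of all genes. In HaCaT 0 of 14 were called with siYAP. In HaCaT alone 5 were called higher with YAP5SA (FOSL1, FOSB, IER3, DUSP1 and ZFP36), against 6.99% of all genes called higher in that line. The siYAP count over both lines was 0 without siYAP library 1 or 3 of A431 and 1 without library 1 of HaCaT. The YAP5SA count over both lines was 2 without the first A431 and 4 without the first HaCaT YAP5SA library. Of 10 proliferation markers all lay below 0 with siYAP (median -0.45), of which PCNA (-0.68, SE 0.14, FDR = 0.00706) and MCM2 (-0.68, SE 0.21, FDR = 0.0479) were called; the count was 7 without the second HaCaT siYAP library and 1 without siYAP library 1 or 3 of either line. The siYAP count was 10 with siCTRL and empty vector pooled as 2 controls (median -1.75), where 20.0% of all genes were called. With YAP5SA against empty vector 5 of the 10 lay above 0 and 0 were called, by edgeR or by DESeq2. Of 8 tested differentiation genes, the cornified envelope transglutaminase TGM1 was higher with siYAP (1.78, SE 0.44, FDR = 0.0197) and KRT10, a suprabasal keratin, lower with YAP5SA (-1.61, SE 0.23, FDR = 0.00636), where the count was 3 without the first HaCaT YAP5SA library. All 8 lay above 0 with siYAP over both lines, whereas with YAP5SA 3 lay above 0 and 5 below. In HaCaT alone YAP5SA gave KRT10 lower (-2.99) but FLG higher (1.46), against 6.64% and 6.99% of all genes. FLG, named after its values were seen, was also called higher with siYAP in HaCaT (2.24), against 2.37%. In A431 0 of 8 were called with either treatment.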

How the data were processed

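The authors sequenced RNA libraries on an Illumina HiSeq, trimmed the reads to 75 bp, mapped them to RefSeq models (hg19 per the submitters' notes) with bowtie2 inside RSEM (1.2.11 in those notes), and deposited RSEM estimated counts per gene. Strand use is not given in the sources used here. Estimated counts were rounded, the 14673 genes averaging more than 10 counts across libraries entered the test, and TMM and the edgeR 4.0.16 quasi-likelihood test (R 4.3.3) were applied in 1 model of 8 groups with 8 residual degrees of freedom, Benjamini-Hochberg adjustment over all tested genes, and calls at FDR below 0.05 and logCPM above 1. The standard error was the absolute log2 fold change over the root of F. The fit was tested on simulated data. Precision follows from 18115624 to 46791673 counts per library. The alternatives were DESeq2 1.42.0, RLE factors, other filters, each line alone, pooled controls, a replicate block and omission of each treated replicate.

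The members and lists were chosen with earlier results of these data known. Named genes are the members, the YAP1 and EGFR checks, in each list up to 2 called genes per direction with the lowest FDR over both lines, and the genes with the highest Pearson r to a member. The comparison of controls within each line, the difference of YAP5SA against siYAP between lines and the comparison through each arm's own control were added after the data were seen. No libraries were duplicates (chi-square per degree of freedom of replicate pairs at least 6.65, and 70.7 to 144 for pairs with the first A431 YAP5SA library or between HaCaT YAP5SA libraries). YAP5SA libraries of A431 and HaCaT with the same number deviated together (r = 0.362, 0.157 and 0.135), so they may be paired. The labels do not say what the numbers mark. The reported values have no replicate term, and the fit with a replicate block called the same 6 members in that comparison. Sequences are from RefSeq GRCh38.p14 and lengths from GENCODE v29; the promoter table had no entry for MYC, which is named only.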

Additional observations from a re-analysis of the deposited data

Results flagged for a closer look

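The difference between YAP5SA and siYAP libraries, which also differ in arm, was not the same in HaCaT and A431 for 5 of 9 members. This was the test of the difference itself (edgeR, value in HaCaT minus value in A431, log2 scale), in which 40.2% of all genes were called. The differences were 2.34 for MYC, 1.58 for MXD1, 1.22 for MLX, -1.41 for MXI1 and -1.28 for MXD4. The MXD4 call (FDR = 0.0295 by edgeR) was lost on omission of some replicates and with a replicate block (FDR = 0.0502 to 0.0947). In the control libraries of HaCaT, MXD1 and MXD4 differed between arms by 1.81 and -2.52 and MYC by 0.11; in those of A431 they differed by -0.08, -0.37 and -1.18. Through the control of each arm, the order of the lines turned for MXD1 (-0.10 in A431 and -0.40 in HaCaT) and MXD4 (-1.36 and -0.48). It was kept for MYC (0.21 and 1.25), MLX (0.06 and 0.89) and MXI1 (-0.79 and -1.62). The part of the arm in the line differences was not tested.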

How the results depend on the processing

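Of 36 called member values, 24 kept their direction and call in every setting tried for their comparison. The settings were not the same for every comparison, and those between control libraries had no omission of replicates. None of the 36 was a treated group against the control of its own arm. The number of members called after siYAP in HaCaT (0) was 1, MYC, with RLE factors and with DESeq2. It was also 1, MYC, with the filter of more than 10 counts applied to all 16 libraries, and 0 to 1 when replicates were left out. With siCTRL and empty vector pooled as 2 controls it was 3, without MYC. These were MXI1 (1.21), MLX (-0.59) and MXD1 (-1.09, against 0.08 with siCTRL alone). Pooled controls also gave 1 after siYAP over both lines, 2 after YAP5SA in HaCaT and 1 after YAP5SA over both lines; DESeq2 gave 1 for the last and 1 for the line difference of the siYAP effect. Omission of replicates gave 0 to 2 after YAP5SA in HaCaT and over both lines. The share of all genes called moved too. Over both lines it went from 13.0% to 20.0% with pooled controls after siYAP. After YAP5SA it went from 2.04% to 5.22% with pooled controls, 7.24% with DESeq2 and 0.341% to 9.34% on omission of replicates. Shares in HaCaT alone under these settings are not given here. Nothing particular to the members is read from these counts. Through the control of each arm, the calls between YAP5SA and siYAP fell from 4 to 0 in A431 and from 6 to 2 in HaCaT. The share of all genes called fell as well, from 34.6% to 1.53% in A431 and from 60.0% to 9.0% in HaCaT. The fall in member calls is therefore not read as particular to the members. MNT in A431 (FDR = 0.0629) and MYC between controls over both lines (FDR = 0.0542) lost their calls with no count filter, as did MAX (FDR = 0.0714) and MNT (FDR = 0.0696) between the HaCaT controls with each line alone, where MAX in A431 gained one (FDR = 0.0268).

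Log2 values changed sign as follows. With pooled controls, siYAP gave -0.15 (MXD3) and 0.07 (MNT) in A431, 0.01 (MAX) and -1.09 (MXD1) in HaCaT, and -0.56 (MXD1), -0.22 (MXD3), 0.37 (MNT) and 0.04 (MGA) over both lines; YAP5SA gave -0.21 (MYC) in A431, 0.31 (MXD1), -1.5 (MXD4) and -0.38 (MNT) in HaCaT, and 0.05 (MXD1) and -0.49 (MNT) over both lines. The line difference then was 0.16 (MAX) and -1.06 (MXD1) for siYAP and -0.22 (MAX), 0.52 (MXD1), -0.55 (MXD4) and 0.01 (MGA) for YAP5SA. Each line alone gave -0.01 (MLX, siYAP, A431) and -0.0025 (MGA, siYAP, HaCaT), no filter -0.0002 (MXD1, siYAP, both lines), and more than 10 counts in every library -0.04 (MAX, YAP5SA against siYAP, HaCaT) and 0.03 (MGA, line difference of YAP5SA). Through the control of each arm, YAP5SA against siYAP was 0.21 (MYC), -0.64 (MXD3), 0.03 (MNT) and 0.06 (MLX) in A431 and -0.40 (MXD1), 0.16 (MNT) and 0.11 (MGA) in HaCaT. The causes were not tested.

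With single replicates left out, values near 0 crossed it: for siYAP, MLX in A431 (-0.05 to 0.06), MGA in HaCaT (-0.03 to 0.08) and, over both lines, MXD1 (-0.06 to 0.04), MXD3 (-0.04 to 0.12) and MNT (-0.10 to 0.04); for YAP5SA over both lines MNT (-0.06 to 0.16); for YAP5SA against siYAP, MAX in HaCaT (-0.13 to 0.21) and MGA (-0.02 to 0.13) and MXD3 (-0.13 to 0.31) in A431; between lines with YAP5SA, MNT (-0.09 to 0.36) and MXD3 (-0.38 to 0.15); and for the line difference of YAP5SA, MYC (-0.05 to 0.13), MXD1 (-0.37 to 0.01) and MGA (-0.12 to 0.0012).

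For siYAP samples of both lines with the same replicate number, the correlations were 0.0189, 0.113 and 0.208. Between siYAP and YAP5SA samples they were -0.0277 to 0.0453 in A431 and 0.0355 to 0.124 in HaCaT. Whether these numbers pair samples was not settled by these values. With a replicate block, MXI1 became called between lines with siYAP (0.42, FDR = 0.00283), MXD4 lost its call in the line difference of YAP5SA against siYAP (-1.28, FDR = 0.0645), MAX in HaCaT was -0.0050 for YAP5SA against siYAP, and no other member call changed. Depth allowed 3 counts to stand for 0.063 to 0.164 CPM, which limits MXD3, at 15.1 to 77.0 counts. The single control per arm and line limits every own-control value.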
